A study of Rattus norvegicus with 12 samples.

Results

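The MAP kinase phosphatases were followed on one-colour arrays of cultured rat hippocampal neurons that had been deprived of oxygen and glucose. The 9 genes considered were Dusp1, Dusp2, Dusp4, Dusp5, Dusp6, Dusp7, Dusp8, Dusp10 and Dusp16. They were chosen by gene family, with earlier results of these data known. Each was measured on the probe that carries its RefSeq transcript accession, and where a gene had several such probes the one with the highest mean log2 signal over the arrays was used. Of the 9 genes, 8 had a probe, among 15154 genes named in this way, and Dusp7 had none. Dusp16 had a further probe, which served as a check.

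The cultures were primary hippocampal neurons of Wistar rat embryos at E18, grown for 14 to 15 days. Some glia remain in such cultures. Oxygen and glucose deprivation (OGD) lasted 2 h in glucose-free buffer in an anaerobic chamber, and control cultures spent the same period in buffer with glucose in air and CO2. All cultures then recovered in conditioned medium for 7 h or 24 h, which gave 4 groups (Ctrl 7h, OGD 7h, Ctrl 24h and OGD 24h). Each group held 3 independent cultures, with 1 culture per array. Whether the same cell preparations supplied several groups is not stated. All values below are log2 intensities relative to the median of the same array, so that 0 is the middle probe of that array and a difference of 1 is a 2-fold difference.

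MAP kinases (ERK, JNK and p38) are switched on when a MAP kinase kinase phosphorylates a threonine and a tyrosine in their activation loop. The dual specificity phosphatases of this family remove both phosphates and so switch the kinase off. Several are themselves transcribed when MAP kinases or calcium signals are active, which makes their mRNA a delayed brake on the pathway. Dusp1, Dusp2, Dusp4 and Dusp5 encode nuclear, inducible enzymes, Dusp6 and Dusp7 encode cytoplasmic enzymes that prefer ERK, and Dusp8, Dusp10 and Dusp16 encode enzymes that prefer JNK and p38. In neurons Dusp1 and Dusp5 belong to the genes that synaptic activity induces.

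The start regions of the genes differ in short motifs that are known to bind factors regulated by calcium and MAP kinases. RefSeq windows of 250 bases before to 50 bases after a gene start (build GRCr8) were available for 8 of the 9 genes, Dusp4 being the gene without one. They were searched on both strands for the cyclic AMP response element TGACGTCA, its core TGACG, the AP-1 site TGANTCA, the E-box CANNTG and the CArG box bound by serum response factor. The windows shown are those of Dusp6 and Dusp2, which differed in opposite directions at 7 h, of Dusp1, which was lower at 24 h, and of Dusp5, the other nuclear member that holds the core. Capitals mark TGACGTCA, TGACG and its complement CGTCA, and the CArG boxes.
Dusp6, chr7:35979354-35979653, plus strand: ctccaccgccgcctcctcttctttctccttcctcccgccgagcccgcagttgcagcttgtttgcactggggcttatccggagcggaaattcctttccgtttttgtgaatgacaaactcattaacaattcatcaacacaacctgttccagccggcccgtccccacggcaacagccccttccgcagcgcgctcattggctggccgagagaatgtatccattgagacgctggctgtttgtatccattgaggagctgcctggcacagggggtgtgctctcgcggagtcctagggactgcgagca
Dusp2, chr3:135009386-135009685, plus strand: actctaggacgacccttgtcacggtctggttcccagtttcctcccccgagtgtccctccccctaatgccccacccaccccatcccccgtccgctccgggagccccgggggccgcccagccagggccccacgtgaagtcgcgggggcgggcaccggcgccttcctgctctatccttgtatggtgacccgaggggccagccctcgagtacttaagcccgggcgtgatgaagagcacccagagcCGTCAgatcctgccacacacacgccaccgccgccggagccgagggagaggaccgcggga
Dusp1, chr10:17184603-17184902, plus strand: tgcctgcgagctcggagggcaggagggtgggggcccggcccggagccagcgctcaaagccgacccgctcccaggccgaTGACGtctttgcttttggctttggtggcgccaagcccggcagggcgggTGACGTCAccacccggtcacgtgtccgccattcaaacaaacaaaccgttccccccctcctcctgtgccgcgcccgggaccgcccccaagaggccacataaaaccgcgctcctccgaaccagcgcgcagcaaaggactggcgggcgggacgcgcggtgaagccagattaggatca
Dusp5, chr1:262543524-262543823, plus strand: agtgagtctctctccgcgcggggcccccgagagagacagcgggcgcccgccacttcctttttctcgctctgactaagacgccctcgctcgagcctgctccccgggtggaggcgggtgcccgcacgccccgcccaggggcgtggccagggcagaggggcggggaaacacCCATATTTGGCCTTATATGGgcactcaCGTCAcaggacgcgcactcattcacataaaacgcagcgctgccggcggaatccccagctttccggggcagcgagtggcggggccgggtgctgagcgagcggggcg

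The full element TGACGTCA was present in the Dusp1 window, starting at -124 from the gene start, and in 1.83% of all 33469 windows. The core TGACG, which the full element also contains, was present in 4 windows (Dusp1, Dusp2, Dusp5 and Dusp16) and in 21.2% of all windows. Adjoining CArG boxes lay at -82 and -72 in the Dusp5 window, and 1.64% of all windows held such a box. The E-box was found in 5 windows (Dusp1, Dusp2, Dusp6, Dusp7 and Dusp16) against 72.1% of all windows. None of the 8 windows held the AP-1 site, which 7.33% of all windows did. The Dusp6 window carried no capitals, which says only that these letters are not in that stretch. The table's start site for Dusp6 lies inside the annotated span of the gene, so this window reaches less far upstream of it, and the windows of Dusp8 and Dusp10 lie wholly inside their genes.

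The median probe intensity was 447 to 660 on the Ctrl 7h arrays, 234 to 426 on the OGD 7h arrays, 402 to 477 on the Ctrl 24h arrays and 131 to 546 on the OGD 24h arrays, the lowest being replicate 1 of OGD 24h. All members were well above background on all 12 arrays, except Dusp10 on 1 Ctrl 7h array, and none was saturated. Control and OGD cultures that share a recovery time and a replicate number were hybridised side by side on 1 slide, which makes 6 slides. On the slides of replicates 1 and 2 at 7 h and replicate 1 at 24 h the OGD array was scanned in an earlier session than its control array, and the arrays of 7 h and 24 h were scanned on different days.

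After 7 h of recovery Dusp6 and Dusp10 had higher signal and Dusp2 lower signal in the OGD cultures, judged by an unadjusted limma p under 0.05, which is called the nominal threshold below. The remaining 5 members did not pass it. That is 2 members higher and 1 lower of 8, beside 4.79% of all 30367 probes higher and 7.03% lower at the nominal threshold. With the study's further criterion of a 2-fold change, only Dusp2 passed (1.66% of all probes were lower and 2.08% higher by that rule). The members' median difference was 0.20 on the log2 scale, against -0.06 over all probes. After Benjamini-Hochberg adjustment over all probes, 0 members and 0 probes of the whole array (0%) passed 0.05 in limma, while 3 members and 3590 probes (11.8%) had an unadjusted p under 0.05.

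**Figure D1:**
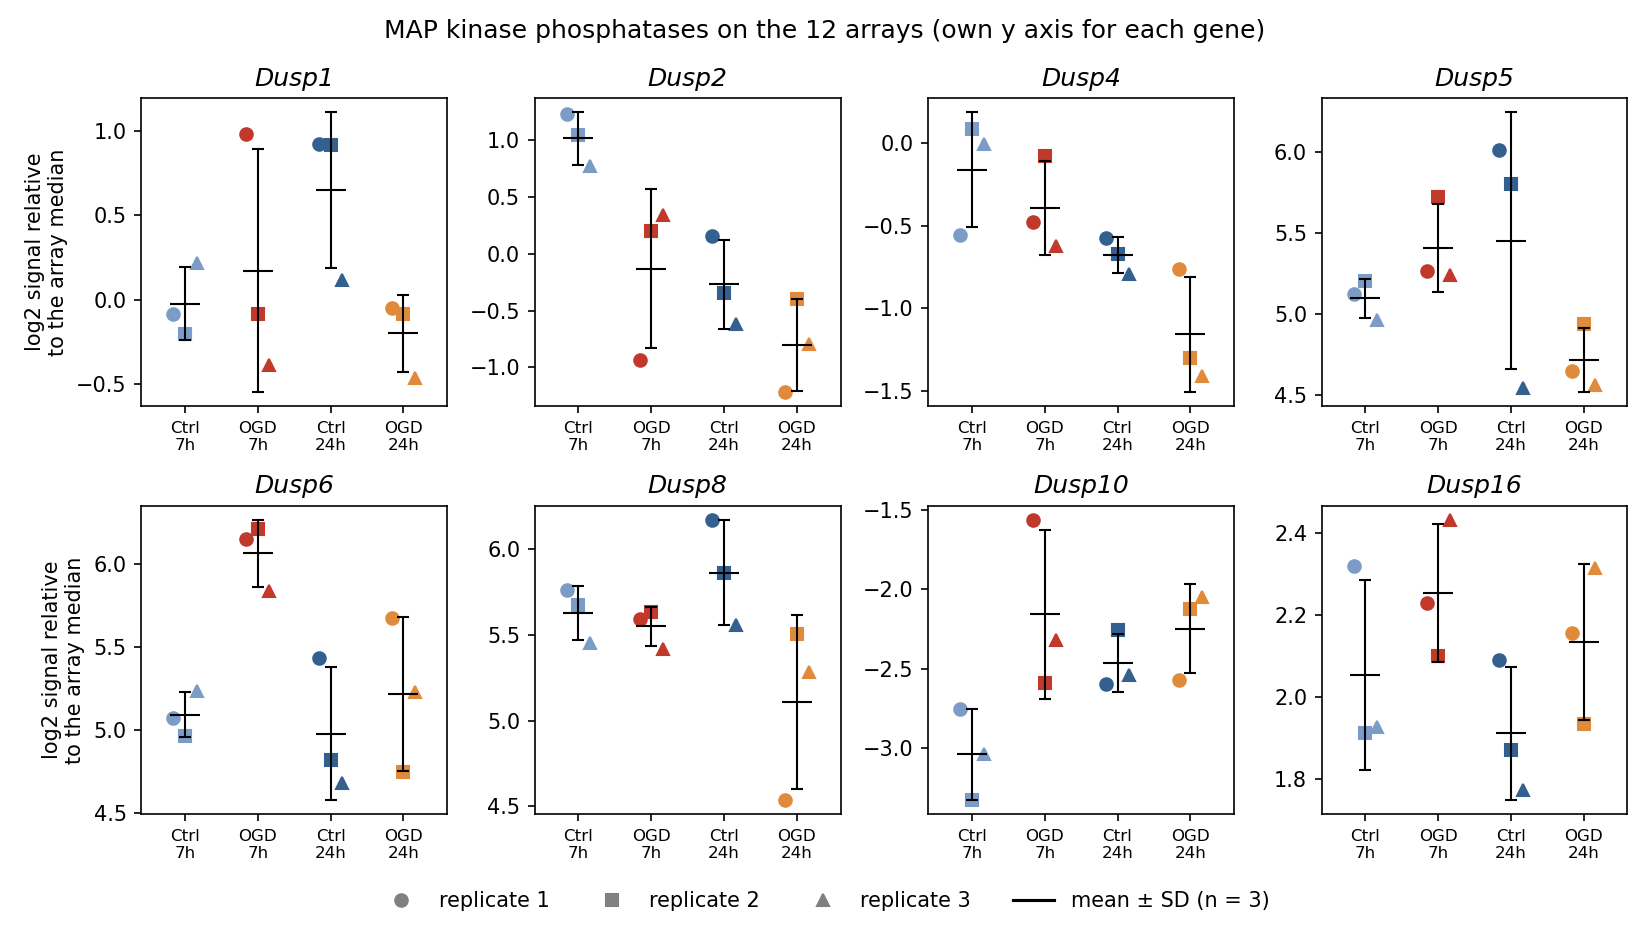
Log2 signal relative to the array median (y axis, own range for each gene) of the 8 measured MAP kinase phosphatases on the 12 arrays, by group (x axis); symbols are replicates, and bars are the mean ± SD of 3 arrays. Dusp5, Dusp6 and Dusp10 lay above all their controls at 7 h, Dusp2 lay below all of its controls at 7 h, and Dusp1 and Dusp8 lay below all of theirs at 24 h. Over all probes 10.6% lay above and 15.5% below at 7 h, and 10.9% above and 7.02% below at 24 h.

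Dusp6 encodes the cytoplasmic phosphatase MKP-3, which binds and dephosphorylates ERK and is itself a transcriptional target of ERK. Its log2 signal was 5.07, 4.97 and 5.24 on the Ctrl 7h arrays and 6.15, 6.21 and 5.84 on the OGD 7h arrays. Every OGD array was above every control array, with no overlap, a state found for 10.6% of all probes in that direction. The difference was 0.97 (SE 0.27, 95% interval 0.38 to 1.57, limma adjusted p = 0.27), a fold of 1.96. On the 3 slides the OGD array exceeded its control by 1.08, 1.24 and 0.60. Before centring, the intensities were 6736 to 10032 on the control arrays and 8587 to 13378 on the OGD arrays and did overlap. The difference was 0.38 after another background correction, normexp, and 0.17 when the arrays were scaled to a spike-in RNA, and it passed the nominal threshold in neither. With scan session as a term, a shift shared by the earlier-scanned OGD arrays of both times, it was 0.63 and passed. The spike-in scaling rests on 1 of 10 spike-in probes, and with it the median difference of all probes at 7 h was -0.86.

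At 24 h the Dusp6 signal was 5.43, 4.82 and 4.68 on the control arrays and 5.68, 4.74 and 5.23 on the OGD arrays. The groups overlapped, and the difference was 0.24 (SE 0.27, 95% interval -0.36 to 0.84, limma adjusted p = 0.70), which did not pass.

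Dusp10 encodes MKP-5, which acts on JNK and p38. Its log2 signal at 7 h was -2.75, -3.33 and -3.04 in control and -1.56, -2.59 and -2.32 after OGD. All OGD values were above all control values, although the probe was faint, with intensities of 21.4 to 43.6 on the control arrays and 30.0 to 41.0 on the OGD arrays. The difference was 0.89 (SE 0.28, 95% interval 0.27 to 1.51, limma adjusted p = 0.29), and the slides gave 1.19, 0.74 and 0.72. With the spike-in scaling it was 0.08 and did not pass, and the methods' t-test did not pass it either.

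At 24 h Dusp10 read -2.60, -2.26 and -2.54 in control and -2.57, -2.13 and -2.05 after OGD, and the groups overlapped. The difference was 0.22 (SE 0.28, 95% interval -0.40 to 0.84, limma adjusted p = 0.75) and did not pass.

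Dusp2 encodes PAC-1, a nuclear phosphatase best known from activated lymphocytes. It moved the other way, from 1.23, 1.05 and 0.77 on the Ctrl 7h arrays to -0.93, 0.20 and 0.34 on the OGD 7h arrays. Every OGD array was below every control array (15.5% of all probes were), and OGD replicate 1 was the lowest of the 6. The difference was -1.15 (SE 0.36, 95% interval -1.94 to -0.36, limma adjusted p = 0.28), which makes the control 2.22-fold higher. Within slides it was -2.17, -0.85 and -0.43. Without replicate 1 of OGD 7h it was -0.75, without both arrays of replicate 1 at each time -0.64 and with normexp -0.98, each under 2-fold. It did not pass the nominal threshold with scan session as a term (-0.71), in the methods' t-test or scaled to the spike-in RNA (-1.96).

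At 24 h the Dusp2 signal was 0.15, -0.34 and -0.62 in control and -1.22, -0.40 and -0.80 after OGD. The groups overlapped, although OGD was lower within each of the 3 slides, and the difference of -0.53 (SE 0.36, 95% interval -1.32 to 0.25, limma adjusted p = 0.51) did not pass.

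The other nuclear members did not pass at 7 h. Dusp1 encodes MKP-1, an immediate early gene product that acts on p38, JNK and ERK. It read -0.08, -0.20 and 0.22 in control and 0.98, -0.08 and -0.38 after OGD, with slides in both directions and a difference of 0.19 (SE 0.35, 95% interval -0.58 to 0.97, limma adjusted p = 0.85). Without OGD replicate 1, the highest of the 6, the difference was -0.21.

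Dusp5 encodes a nuclear phosphatase that is selective for ERK. Its signal at 7 h was 5.12, 5.20 and 4.96 in control and 5.27, 5.72 and 5.24 after OGD. The groups did not overlap, yet the difference of 0.31 (SE 0.34, 95% interval -0.43 to 1.06, limma adjusted p = 0.74) did not pass. Dusp4, which encodes the nuclear MKP-2, read -0.56, 0.08 and -0.01 in control and -0.48, -0.08 and -0.63 after OGD. Its groups overlapped, and the difference was -0.23 (SE 0.25, 95% interval -0.77 to 0.31, limma adjusted p = 0.73).

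The remaining JNK- and p38-directed members overlapped between groups at 7 h and did not pass. Dusp8 was at 5.76, 5.67 and 5.46 in control and 5.60, 5.64 and 5.42 after OGD, a difference of -0.08 (SE 0.26, 95% interval -0.65 to 0.49, limma adjusted p = 0.91). Dusp16, which encodes MKP-7, was at 2.32, 1.91 and 1.93 in control and 2.23, 2.10 and 2.43 after OGD, a difference of 0.20 (SE 0.19, 95% interval -0.22 to 0.62, limma adjusted p = 0.70). The other Dusp16 probe gave 0.68 (limma adjusted p = 0.53), and on it all OGD 7h values were above all control values.

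**Figure D2:**
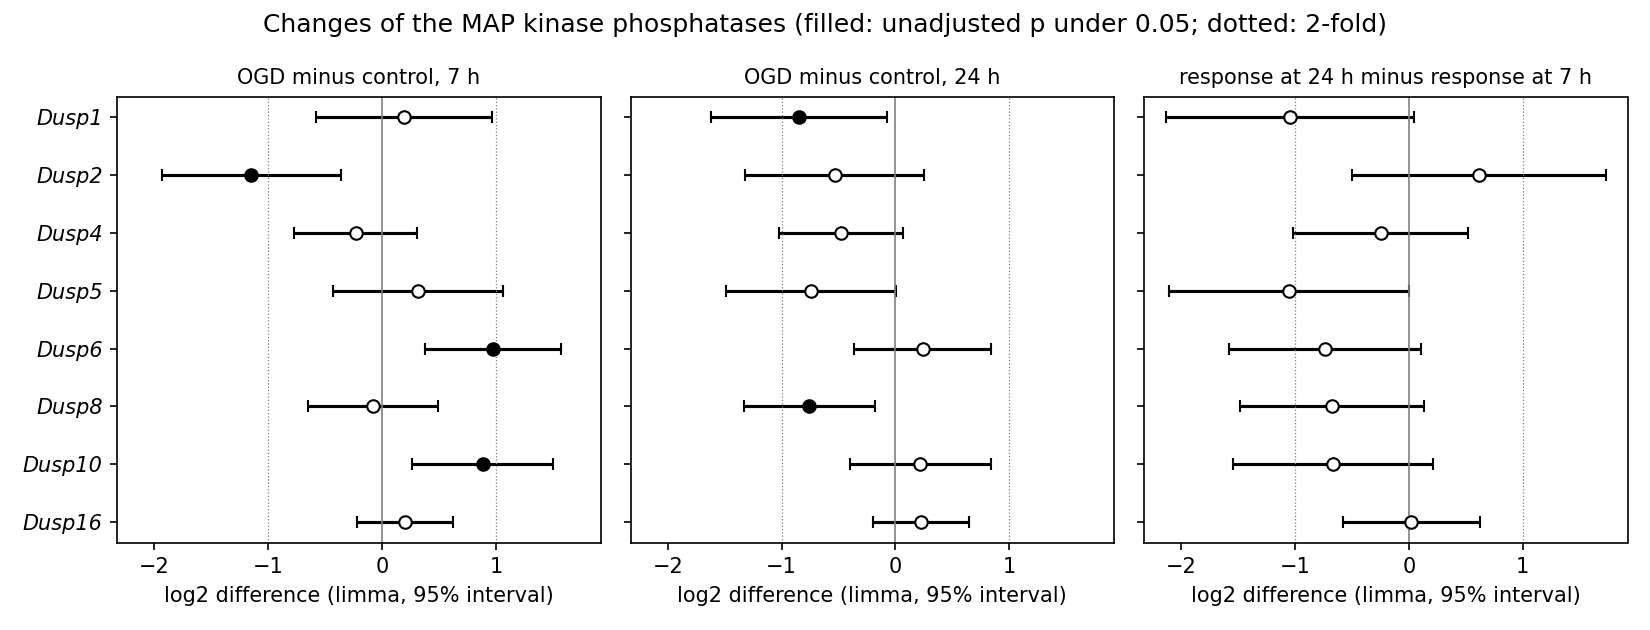
Log2 differences with 95% intervals from limma (x axis) for the 8 members (y axis): OGD minus control at 7 h, at 24 h, and the 24 h response minus the 7 h response. Filled points mark an unadjusted p under 0.05 (Dusp6, Dusp10 and Dusp2 at 7 h; Dusp1 and Dusp8 at 24 h) and dotted lines a 2-fold difference.

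After 24 h of recovery Dusp1 and Dusp8 were lower in the OGD cultures at the nominal threshold, no member was higher, and neither reached a 2-fold difference. Over all probes 6.19% were lower and 7.51% higher at that threshold, and 1.96% were lower and 3.71% higher with the 2-fold criterion. The members' median difference was -0.51, against 0.01 over all probes, and 5 of the 8 had a difference below 0. With adjustment over all probes 0 members and 0 probes passed in limma, beside 2 members and 4160 probes (13.7%) at an unadjusted p under 0.05.

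Dusp1 read 0.92, 0.91 and 0.12 on the Ctrl 24h arrays and -0.05, -0.09 and -0.46 on the OGD 24h arrays. No OGD value reached the lowest control value, which was the case for 7.02% of all probes (10.9% lay the other way). The difference was -0.85 (SE 0.35, 95% interval -1.62 to -0.08, limma adjusted p = 0.33), and within slides it was -0.97, -0.998 and -0.58. It did not pass when centred on the 75th percentile (-0.74), with normexp (-0.58) or scaled to the spike-in RNA (-1.87). It also did not pass without control replicate 1 (-0.71), control replicate 2 (-0.72), OGD replicate 2 (-0.90) or OGD replicate 3 (-0.72).

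Dusp8 encodes a phosphatase that acts on JNK and p38 and is expressed mainly in brain and heart. It read 6.17, 5.86 and 5.56 in control and 4.54, 5.51 and 5.28 after OGD at 24 h. The groups did not overlap, and replicate 1 of OGD 24h lay far below the others. The difference was -0.75 (SE 0.26, 95% interval -1.33 to -0.18, limma adjusted p = 0.29), with -1.63, -0.35 and -0.28 on the slides. Without that OGD array it was -0.47 and still passed the nominal threshold. It did not pass without control replicate 1 (-0.60), without both arrays of replicate 1 at each time (-0.32), scaled to the spike-in RNA (-1.78), in the methods' t-test, or in limma on 1 time alone (-0.75). With normexp it was -1.16 and passed.

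Dusp5 was at 6.01, 5.81 and 4.54 on the Ctrl 24h arrays and at 4.65, 4.94 and 4.56 on the OGD 24h arrays. Control replicate 3 lay below all 3 OGD arrays, so the groups overlapped. The difference of -0.74 (SE 0.34, 95% interval -1.49 to 0.01, limma adjusted p = 0.37) missed the nominal threshold. The slides gave -1.37, -0.87 and 0.02. It passed without that control array (-1.20), with normexp (-1.14), with the authors' values (-0.73), and at -0.74 with dim probes left out or slide as a fixed or random term.

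Dusp4 read -0.57, -0.67 and -0.79 in control and -0.76, -1.30 and -1.41 after OGD at 24 h. OGD was lower within each slide, by values of -0.19, -0.63 and -0.62, and the difference of -0.48 (SE 0.25, 95% interval -1.02 to 0.06, limma adjusted p = 0.41) did not pass. It did pass without OGD replicate 1 (-0.68), without both arrays of replicate 1 at each time (-0.62), with scan session as a term (-0.64) and with quantile normalization (-0.50). Dusp16 was at 2.09, 1.87 and 1.77 in control and 2.16, 1.93 and 2.31 after OGD, a difference of 0.22 (SE 0.19, 95% interval -0.20 to 0.65, limma adjusted p = 0.60) that did not pass. Its other probe gave 0.60 (limma adjusted p = 0.53).

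**Figure D3:**
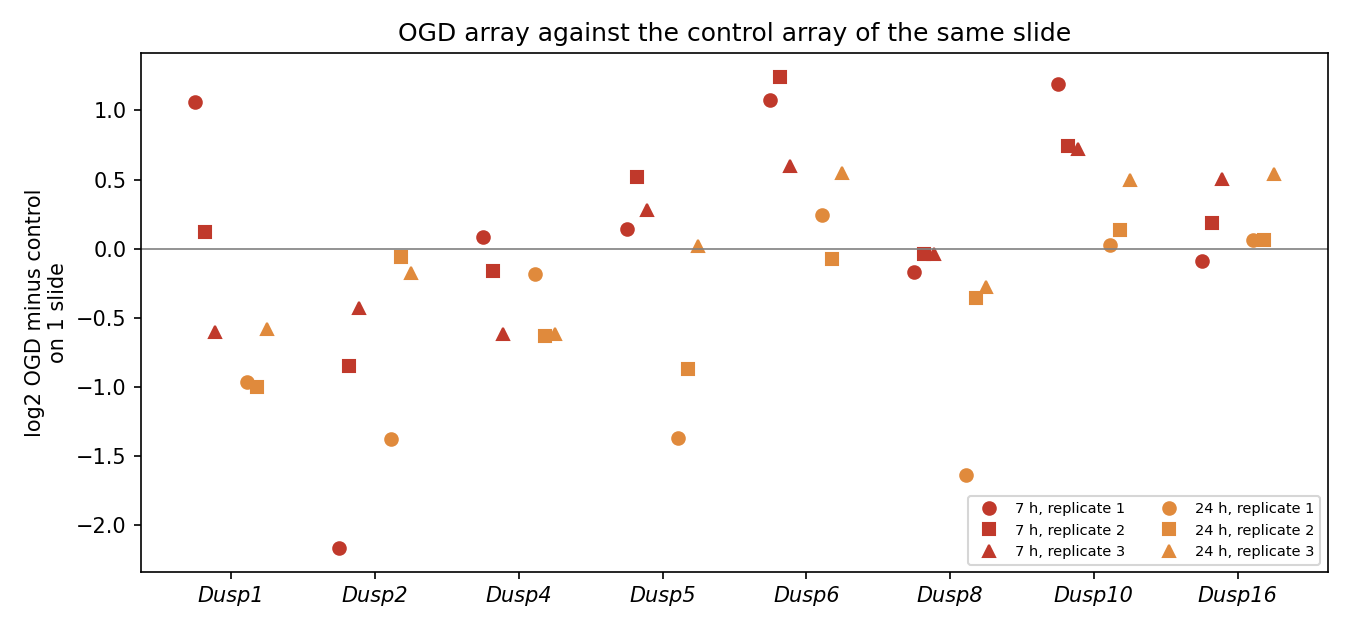
Log2 signal of the OGD array minus that of the control array on the same slide (y axis) for each member (x axis), at 7 h and 24 h; symbols are replicate numbers. Dusp6 and Dusp10 were above 0 on all 3 slides at 7 h, Dusp2 was below 0 on all slides at both times, and the slide of replicate 1 gave the lowest value of Dusp2 at both times and of Dusp8 at 24 h.

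Whether the response changed between 7 h and 24 h was tested as the 24 h response minus the 7 h response. No member passed the nominal threshold, which 3.58% of all probes did, and every member's limma adjusted p was 1.00. Dusp5 came nearest, with -1.05 (SE 0.48, 95% interval -2.11 to 0.00, limma adjusted p = 1.00). The corresponding values were -1.04 for Dusp1, -0.73 for Dusp6, -0.67 for Dusp8, -0.67 for Dusp10, -0.25 for Dusp4, 0.02 for Dusp16 and 0.62 for Dusp2. With slide as a fixed or random term Dusp5 passed at -1.05. Leaving out 1 array let Dusp1 (-1.31) and Dusp5 (-1.51) pass without Ctrl 24h replicate 3, Dusp1 (-1.32) without OGD 7h replicate 3, Dusp6 (-0.97) without OGD 24h replicate 1 and Dusp8 (-0.87) without OGD 24h replicate 2. The passing of Dusp6, Dusp10 and Dusp2 at 7 h alone is therefore not shown to be a difference between the times, and neither is the passing of Dusp1 and Dusp8 at 24 h alone.

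The control cultures themselves differed between the times for 1 member. Dusp2 was lower in Ctrl 24h than in Ctrl 7h by a difference of -1.29 (SE 0.36, 95% interval -2.07 to -0.50, limma adjusted p = 0.16), where 4.1% of all probes were lower with a 2-fold change. All Ctrl 24h values of Dusp2 lay below all Ctrl 7h values, and the share of all probes that did so is not given here. Between the controls 4471 of 30367 probes had an unadjusted limma p under 0.05. Recovery time and scan day cannot be told apart in this comparison. The other members, with differences from -0.52 (Dusp4) to 0.67 (Dusp1), did not pass the nominal threshold. The Dusp2 signal was thus highest in the Ctrl 7h group of the 4, and both comparisons that gave it as lower share those 3 arrays.

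The labelled neurons showed their markers. All 17 neuron markers, among them Rbfox3, Map2 and Tubb3, were well above background on all 12 arrays. Their summed level, in multiples of the array median, was 691 to 900 on the Ctrl 7h arrays and 637 to 865 on the OGD 7h arrays, and 748 to 1078 on the Ctrl 24h arrays and 356 to 749 on the OGD 24h arrays. At 7 h 2 of the 17 (Slc17a7 and Eno2) were lower at the nominal threshold with a 2-fold change. At 24 h 5 were (Slc17a7, Gad2, Eno2, Gad1 and Syn1), with 10 lower by p alone. Over all probes 1.66% were lower with a 2-fold change at 7 h and 1.96% at 24 h, where 6.19% were lower by p alone. With the other centrings Eno2 was at -0.98 at 7 h and at -0.95 to -0.94 at 24 h, under 2-fold. The median difference of the 17 was -0.39 at 7 h and -0.65 at 24 h, beside 0.20 and -0.51 for the phosphatases. In bulk cultures fewer neurons and less RNA per neuron cannot be told apart, and the part of this shift in the lower Dusp1 and Dusp8 signal was not tested.

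Markers of other cells were present too. The 11 astrocyte markers summed to 1182 to 1389 in Ctrl 7h and 1556 to 2053 in OGD 7h. At 7 h 3 of them passed the nominal threshold as higher, none 2-fold, beside 4.79% of all probes higher. At 24 h their sums were 1356 to 1539 in control and 1218 to 1617 after OGD. The 12 microglia markers summed to 16.3 to 17.0 and 16.4 to 29.4 at 7 h and to 21.4 to 26.0 and 25.9 to 36.1 at 24 h, with Ptprc well above background on no array. Among them only Cx3cr1 passed the nominal threshold at 7 h, as higher, by 1.02 (SE 0.27, limma adjusted p = 0.26). The median difference of the 12 at 7 h was 0.09. With the spike-in scaling Cx3cr1 was at 0.21. Its Ctrl 24h signal was above its Ctrl 7h signal by 1.25 (SE 0.27, limma adjusted p = 0.095), where recovery time and scan day cannot be told apart. The 12 oligodendrocyte markers summed to 222 to 231 in Ctrl 7h, 147 to 259 in OGD 7h, 261 to 360 in Ctrl 24h and 317 to 491 in OGD 24h. At 7 h their members Opalin and Cspg4 passed with a 2-fold change, Opalin higher and Cspg4 lower. Opalin differed by 3.10 (SE 1.13, limma adjusted p = 0.34). Its values were -0.48 to -0.15 in Ctrl 7h and spread from 0.88 to 4.88 in OGD 7h. Cspg4 was at -0.97 to -0.96 with the other centrings and so under 2-fold. The 11 vascular and fibroblast markers summed to 43.4 to 145 and 61.5 to 186 at 7 h and to 37.8 to 142 and 130 to 237 at 24 h, with Tek on no array. Pdgfrb was higher at 24 h with a 2-fold change, and Cldn5 passed as lower at 7 h, where it was not well above background on any OGD array. Their part in the results for Dusp6, Dusp10 and Dusp2 was not tested.

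The kinases that these phosphatases act on were measured on the same arrays. Counts in this and the following lists stand beside the shares of all probes given above for each time. Of 14 MAP kinases 11 had a probe, and 0 passed with a 2-fold change at 7 h in limma, where 2 were lower by unadjusted p alone (under 0.05). At 24 h Mapk10, the JNK isoform enriched in neurons, fell by 1.04 (SE 0.26, limma adjusted p = 0.26). With the other centrings the difference was -0.94 to -0.93, under 2-fold. Its signal was 4.39 to 4.56 in Ctrl 24h and 3.52 to 4.01 in Ctrl 7h. That control difference was 0.73 (SE 0.26, limma adjusted p = 0.27), where recovery time and scan day cannot be told apart. Of the 7 MAP kinase kinases, which phosphorylate the MAP kinases, 0 passed with a 2-fold change at either time in limma, and 1 was lower by unadjusted p alone at 7 h.

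Among the MAP kinase kinase kinases, which start each cascade, 14 of 19 had a probe. Map3k8, which encodes the kinase Tpl2 that feeds into ERK, rose by 1.76 (SE 0.49, limma adjusted p = 0.27) at 7 h and by 1.99 (SE 0.49, limma adjusted p = 0.25) at 24 h, and its probe was well above background on all OGD arrays but on 2 of 3 control arrays at each time. Map3k6 rose at 24 h by 1.79 (SE 0.42, limma adjusted p = 0.25). Its signal was -0.35 to 0.53 in Ctrl 24h and 1.13 to 2.95 in OGD 24h. Ctrl 24h lay below Ctrl 7h (1.72 to 2.18), by a difference of -1.90 (SE 0.42, limma adjusted p = 0.097). Recovery time and scan day cannot be told apart between the controls. Mos passed as lower at 7 h, but its probe was not well above background in either group at that time, so it has no fold. Rose and fell here mean the nominal threshold with a 2-fold change.

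**Figure D4:**
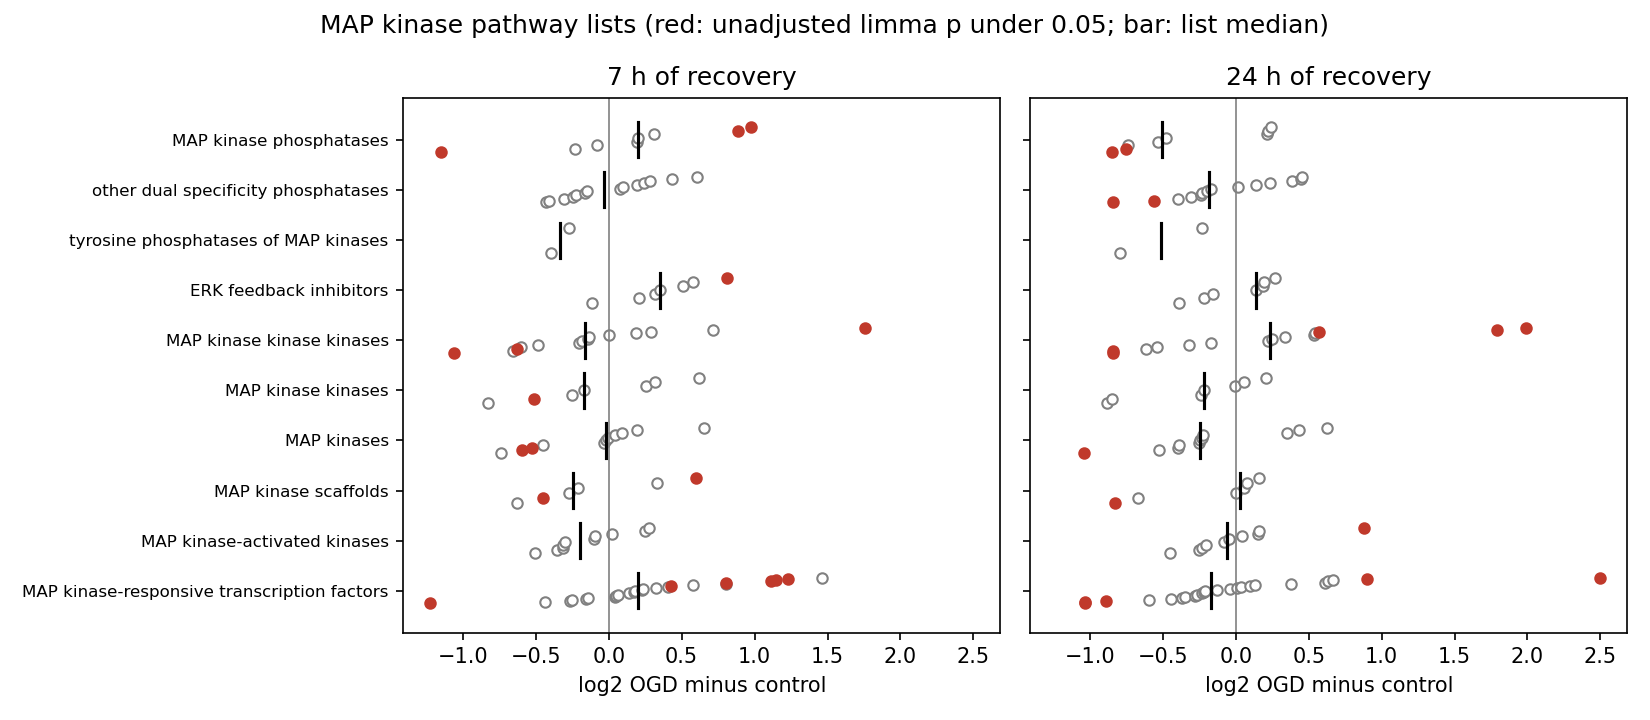
Log2 OGD minus control (x axis) of every measured gene of 10 MAP kinase pathway lists (y axis), at 7 h and 24 h; red points passed an unadjusted limma p under 0.05, and bars are list medians. The phosphatases had medians of 0.20 at 7 h and -0.51 at 24 h, and the highest point at 24 h is Fosl1 at 2.50.

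The other brakes on the pathway had few genes past the thresholds. Of 10 ERK feedback inhibitors 7 had a probe, 0 passed with a 2-fold change at either time in limma, and 1 (Errfi1) was higher by unadjusted p alone at 7 h. Their median difference was 0.35 at 7 h and 0.14 at 24 h. Of 20 other dual specificity phosphatases 14 had a probe, and 0 passed with a 2-fold change in limma, where 0 passed by unadjusted p alone at 7 h and 2 (Dusp26 and Dusp14) were lower at 24 h. Both tyrosine phosphatases of MAP kinases with a probe, of 3 listed, failed to pass at either time. Of 9 scaffolds 6 had a probe, and 0 passed with a 2-fold change in limma, with 1 higher and 1 lower by unadjusted p alone at 7 h and 1 lower at 24 h. Of 11 MAP kinase-activated kinases 10 had a probe, with 0 passing at 7 h in limma and 1 (Mapkapk3) higher by unadjusted p alone at 24 h.

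Of the 25 listed transcription factors that MAP kinases induce or phosphorylate, 24 had a probe, and 4 passed with a 2-fold change at 7 h and 3 at 24 h. Junb, Myc and Atf3, which belong to the early response to growth factors and stress, rose at 7 h by 1.15 (SE 0.26, limma adjusted p = 0.23), 1.23 (SE 0.30, limma adjusted p = 0.24) and 1.11 (SE 0.35, limma adjusted p = 0.29). Egr4 fell by 1.22 (SE 0.34, limma adjusted p = 0.27). At 24 h Fosl1, a subunit of AP-1, rose by 2.50 (SE 0.78, limma adjusted p = 0.28). Its signal was 0.92 to 1.46 in Ctrl 24h and 2.42 to 5.93 in OGD 24h. Ctrl 24h lay below Ctrl 7h (3.92 to 4.85), by a difference of -3.12 (SE 0.78, limma adjusted p = 0.13). Recovery time and scan day cannot be told apart between the controls. Egr4 fell by 1.03 and Nr4a1 fell by 1.04, the latter named after its value was seen. With the other centrings Egr4 was at -0.92 to -0.91 and Nr4a1 at -0.92, both under 2-fold. Between the controls Nr4a1 was higher at 24 h than at 7 h, by 1.40. With the spike-in scaling the differences given here for Map3k8, Map3k6, Junb, Myc and Atf3 were 0.30 to 0.97, under 2-fold. This list's median difference was 0.20 at 7 h and -0.17 at 24 h.

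The genes whose signal followed Dusp6 and Dusp8 most closely over the 12 arrays are given as a description, since all genes share the arrays and their groups. Among 11637 genes well above background on at least 9 arrays, Pearson's r with Dusp6, the member with the lowest p at 7 h, was highest for Cited2 (0.948), Nab2 (0.921), Shld2 (0.903), Npm1 (0.896) and Rock2 (0.895). Nab2 encodes a co-repressor of the Egr factors. The log2 differences of these 5 ran from 0.26 (Shld2) to 0.94 (Cited2) at 7 h and from -0.13 (Rock2) to 0.44 (Npm1) at 24 h, beside 0.97 and 0.24 for Dusp6. With Dusp8, the member with the lowest p at 24 h, r was highest for Arhgap8 (0.973), Sorcs2 (0.966), Speg (0.964), Sv2b (0.963) and Neurod2 (0.960). Sv2b encodes a synaptic vesicle protein and Neurod2 a transcription factor of excitatory neurons. The log2 differences of these 5 at 24 h ran from -1.59 (Sv2b) to -0.88 (Arhgap8), beside -0.75 for Dusp8. They come from the same arrays on which the genes were picked. Dusp8 read 4.54 on OGD 24h replicate 1 and 5.28 to 6.17 on the other arrays. How far r and these differences rest on that array was not tested.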

How the data were processed

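RNA of each culture was labelled with Cy3 and hybridised to 1 Agilent rat array. The authors deposited Feature Extraction 10.5.1.1 output, whose intensity values are background-subtracted, and a table of log2 values, used here as an alternative. Each of its columns differs from the scanner values by a constant, which is about 0 for Ctrl 24h replicate 3, and the column medians run from 7.57 to 7.72. The study's own list comparison was a t-test with a fold threshold.

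From the deposited intensity (gProcessedSignal), outlier spots were left out, spots of a probe averaged in log2 and each array's median subtracted, as in the study's methods. Of 30367 non-control probes, 18004 were named by RefSeq accession (GRCr8), giving 15154 symbols; 70 values were missing. limma 3.58.1 (R 4.3.3) was fitted to the 4 groups together, two-sided, with Benjamini-Hochberg adjustment over all probes, and tested on simulated data. The call was an unadjusted p under 0.05 with a fold of at least 2. Precision is limited by 3 arrays a group.

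Named are all members, from each pathway list at most 5 called genes with the lowest p, called markers, and the 5 genes closest to the leading member at each time. Lists were written from general knowledge, and members and lists were chosen with earlier results of these data known. The alternatives were other centring, background correction, filters, the authors' values, the methods' t-test, slide and scan terms, and leaving out arrays or slides.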

Additional observations from a re-analysis of the deposited data

Results flagged for a closer look

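Nr4a1, an immediate early gene of the nuclear receptor family and no member of the phosphatases, had an OGD array above its control array on all 3 slides at 7 h and below it on all 3 slides at 24 h. The difference of the responses, 24 h minus 7 h, was -1.84 (SE 0.53, limma adjusted p = 1.00), which has an unadjusted p under 0.05 but fails the correction over all probes. With the spike-in scaling the mean difference of Nr4a1 at 7 h was -0.0058. The Nr4a1 signal was 4.07 to 4.90 in Ctrl 7h and 4.91 to 5.47 in OGD 7h. At 24 h it was 5.05 to 6.65 in control and 4.49 to 4.98 after OGD. Ctrl 24h was above Ctrl 7h by 1.40 (SE 0.38, limma adjusted p = 0.15), and this control difference enters the difference of the responses. Recovery time and scan day cannot be told apart there. No phosphatase had responses that were opposite on every slide, and none passed the test of the difference.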

How the results depend on the processing

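Of 760 values of single members under the alternatives, 674 kept their direction and side of the threshold. Of the rest, 39 newly passed it, 19 lost it and 28 changed sign, and the cause was not tested. For part of the 760 the direction could not change, as where only the test differed or an array outside the comparison was left out. The count is therefore no measure of how firm the results are. Members called with a 2-fold change at 7 h (1, Dusp2) were 2 with 75th percentile centring or quantile normalization and 0 with the spike-in scaling, normexp, the methods' t-test, scan session as a term, or without the slides of replicate 1. Members higher at 7 h (2) were 0 with the spike-in scaling and 1 with normexp or the t-test, and members lower (1) were 0 with the spike-in scaling, the t-test or scan session. At 24 h members lower (2) were 1 with the 75th percentile, the t-test or limma on 1 time alone, 0 with the spike-in scaling and 3 with quantile normalization, dim probes left out, the authors' values, slide as a term or scan session, and 2-fold calls (0) were 2 with normexp and 1 with scan session. For the difference of the responses, members lower (0) were 2 with the 75th percentile or quantile normalization and 1 with dim probes left out, the authors' values or the replicate block (slide fixed or random), and 2-fold calls (0) were 1 under these except quantile normalization. For control at 24 h against 7 h, members higher (0) were 1 with quantile normalization, the t-test or without the slides of replicate 1; members lower (1) were 2 with quantile normalization, scan session or without those slides and 8 with the spike-in scaling, as were 2-fold calls.

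The spike-in scaling, which rests on 1 of 10 spike-in probes, put the median difference of all probes at -0.86 at 7 h, -1.01 at 24 h and -4.62 between the controls. With it, signs changed at 7 h for Dusp1 (-0.61), Dusp5 (-0.49) and Dusp16 (-0.61), at 24 h for Dusp6 (-0.79), Dusp10 (-0.81) and Dusp16 (-0.80), for the difference of Dusp16 (-0.19), and between controls for Dusp1 (-3.90), Dusp5 (-4.21), Dusp8 (-4.34) and Dusp10 (-3.99). With normexp, Dusp5 (-0.26) and Dusp16 (-0.28) changed sign at 7 h and Dusp6 (-0.20) and Dusp16 (-0.06) at 24 h. Other changes of sign were at 7 h Dusp8 with the 75th percentile (0.03) and scan session (0.14) and Dusp1 with scan session (-0.16) and without the slides of replicate 1 (-0.24), and for the difference Dusp16 with the probe mean (-0.03), scan session (-0.02) and without those slides (-0.04). Normexp was run on the median spot signal, chosen after seeing the data, as were scan session as a term and leaving out the slides of replicate 1; the planned run on the mean signal was not run.

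Leaving out 1 array at a time, 2-fold calls ran from 0 to 2 at 7 h, 0 to 2 at 24 h, 0 to 2 for the difference and 1 to 1 between controls. Values that changed sign among these ran from -0.21 to 0.47 for Dusp1 at 7 h, -0.11 to 0.12 for the difference of Dusp16 and -0.34 to 0.03 for Dusp6 between controls (-0.35 without the slides of replicate 1). Members higher ran from 2 to 2, 0 to 0, 0 to 0 and 0 to 2, and members lower from 1 to 1, 0 to 3, 0 to 2 and 1 to 2, in the same order.

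Same-numbered control and OGD arrays deviated together with r from -0.05 to 0.11 at 7 h and -0.01 to 0.17 at 24 h. The numbers were therefore not taken as pairs. Same-numbered arrays were not compared in this way between 7 h and 24 h. With slide as a replicate block, fixed or random, Dusp5 passed the nominal threshold at 24 h (-0.74) and for the difference of the responses (-1.05), and no other member's call changed in either.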
